A study of Arabidopsis thaliana with 34 samples.

Results

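After 24 h in 4% oxygen, shoots of the Arabidopsis line Mt62, which makes a bacterial haemoglobin in its mitochondria, were compared with shoots of the wild type (WT) held under the same hypoxia. The comparison is 1 of the 34 columns of the authors' deposited table, and every one of its 34558 probe rows was taken. A row counts as listed where the column holds a value and as not listed where it holds null. Of the 34558 rows, 1308 were listed (3.78%), 617 higher and 691 lower in Mt62. They gave 1055 of 24537 measured genes, of which 488 were higher in Mt62 (1.99%) and 567 lower (2.31%). These 2 percentages are the background against which each gene group below is read. They are taken over all measured genes, although 13389 of the 34558 rows were listed in no column. Genes that vary more are called more often in any column. A share above the background therefore does not by itself set a group apart from other genes that respond to hypoxia.

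Plants were of the Landsberg background, 16 days old at the start and grown on agar with sucrose in short days, and RNA came from their shoots. WT carried no transgene, line C13 made Vitreoscilla haemoglobin (VHb) in the cytosol, and Mt62 (line 6:2) made it in mitochondria. Each transgenic genotype is represented by 1 line, and the promoter that drives the transgene is not given in the labels. Hypoxia was made by sealing plates with an oxygen-consuming sachet for 2 or 24 h, a nitric oxide (NO) donor, DETA, was given at 500 µM for 2 or 24 h, and untreated plants were taken at 0, 2 and 24 h. The Mt62 and the WT group at 24 h of hypoxia had 4 array channels each by the sample descriptions, in both groups 2 with Alexa 488, 1 with Cy3 and 1 with HyPer5. They shared 2 slides and no array field. Whether all 4 Mt62 channels entered the authors' values is not certain. The series text calls the channels biological replicates and does not say whether they were separate cultures, so that p-values may measure technical spread.

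The table holds log fold changes between groups and no value per plant or channel, so that no spread over replicates can be given. Every log fold change below is a value of the authors' deposited table, first group minus second, unless it is said to be computed. The base of the log is not stated and is taken here as 2. The authors listed a value where their empirical Bayes test gave p of 0.01 or less, and no adjustment of that p for the number of tests is described. At that threshold about 346 rows would be listed if no row differed. The smallest listed value of a row over all columns sets an upper bound on the standard error (SE) of that row. "SE at most" and "adjusted p from the bound" below refer to this bound. It assumes the same spread in all groups of a row, a normal quantile for the threshold and the channel numbers of the sample descriptions. Whether the authors' test met these assumptions is not known, and where they fail the true error can exceed the bound. The bound had a median of 0.18 over the 1308 listed rows. With p-values taken from it and adjusted by Benjamini and Hochberg over all rows, 83 rows passed at 0.05. Since the true error can be well below its bound, a gene that missed this adjustment is not shown to be alike in both lines. The array gives no level per gene, so the shoot label could not be checked against marker levels. None of 12 measured root marker genes was called, and for only 4 of them do the other columns set a limit on an unlisted difference. The transcript of the transgene itself was not analysed here.

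VHb is an oxygen-binding protein of a bacterium that lives where oxygen is scarce, and it can also turn NO into nitrate. In plants, low oxygen stabilises ethylene response factors of group VII, which switch on fermentation, haemoglobin and other core hypoxia genes, while growth, photosynthesis and protein synthesis are usually held back. Mitochondria are where most oxygen is used and are a source of NO in hypoxic plant cells.

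**Figure D1:**
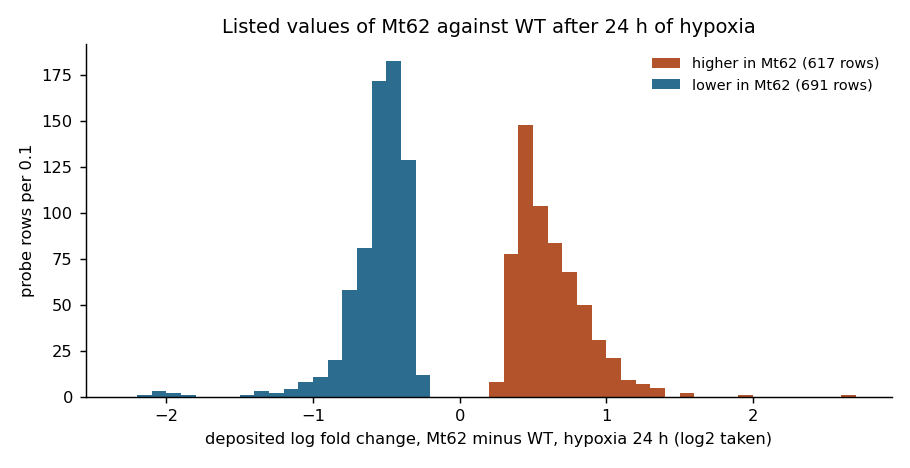
Histogram of the 1308 listed rows by their deposited log fold change, Mt62 minus WT, after 24 h of hypoxia, with 617 higher rows in brown and 691 lower rows in blue. Values ran from -2.17 to 2.61, and the gap around 0 is left by rows that were not listed.

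Most differences in the authors' deposited table were small. The median size over all listed rows was 0.53, the smallest was 0.22, and among called genes 37 were higher and 15 lower by 1 or more. The gene with the highest value was TBL26, a member of the trichome birefringence-like family of cell wall acetylation proteins, at 2.61 in 1 of its 2 rows (SE at most 0.28, adjusted p from the bound 1.2e-08). CAO, which makes chlorophyll b from chlorophyll a, followed at 1.91 (SE at most 0.67). SAUR65 stood at 1.59, the homeobox factor HAT2 at 1.54 and the β-xylosidase BXL2 at 1.37. Also among the 12 highest were HSA32, a protein of heat acclimation, at 1.36, the carbonic anhydrase BCA6 at 1.34, SAUR21 at 1.33, UGT76C2, which glucosylates cytokinins, at 1.28 and APR3, an enzyme of sulfate reduction, at 1.27. AT1G72660 at 1.38 and AT1G29620 at 1.299 complete the 12. Of these 12, only TBL26, HAT2 and SAUR21 passed the adjusted p.

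At the other end, AT1G71000, a member of the heat shock list, was lowest at -2.17 (SE at most 0.66). HY5, the bZIP factor that promotes light and UV-B responses and flavonoid synthesis, stood at -2.08 (SE at most 0.61), and AT5G06610 also at -2.08 (SE at most 0.38). AT3G22235 was at -1.91, AT4G00670 at -1.83 and AT1G40087 at -1.43. APL3, a large subunit of the enzyme that commits glucose to starch, was at -1.36 (SE at most 0.24, adjusted p from the bound 0.00168). PCO2, a plant cysteine oxidase that marks group VII factors for breakdown when oxygen is present, was at -1.21. HIR1 was at -1.14, AT3G45160 at -1.26, AT5G66960 at -1.09 and PAP1, the MYB factor that turns on anthocyanin synthesis, at -1.08 (SE at most 0.18). Of these 12 lowest, AT5G06610, AT4G00670, AT1G40087, APL3 and PAP1 passed the adjusted p.

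Of the called genes 120 have more than 1 probe row, and in only 4 of these were all rows listed, so that a call usually rests on 1 probe. With 3 channels assumed for hypoxic Mt62, the rows that passed the adjusted p belonged to only 7 higher and 11 lower genes. Which of the named genes are among these is not marked here. With 4 channels the rows that passed belonged to 27 higher and 34 lower genes. Beyond those above, the 12 highest of them included the jasmonate repressor JAZ9 at 1.18, the potassium transporter KUP6 at 0.96, RTM2, which limits long-distance movement of a potyvirus, at 0.95, and the ubiquitin protease UBP22 at 0.87. AT5G08520 at 1.11, AT5G63100 and AT1G12775 at 0.89, AT5G02170 at 0.88 and AT1G79220 at 0.87 were the others. The 12 lowest included the glycosyl hydrolase GH9B8 at -0.99, AT5G13830 at -1.01, AT3G15650 at -1.07, AT3G01350 at -0.88 and AT2G37020 at -0.77, and ended with the nucleoside diphosphate kinase NDPK1 and with AT1G06000, both at -0.75.

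Genes of the auxin response were higher in Mt62. Of 20 measured members of the list, 6 were called, all higher (30%, against 1.99% of all genes), with a median of 1.105. Besides HAT2 and SAUR21 they were the Aux/IAA repressors IAA29 at 1.24, IAA1 at 0.97 and IAA19 at 0.60, and GH3.1, an auxin-conjugating enzyme, at 0.37. Among the 6 only HAT2 and SAUR21 passed the adjusted p from the bound. These genes are switched on by auxin, and all but GH3.1 fell in hypoxic WT. In whole shoots, fewer cells of a type and less RNA per cell cannot be told apart. IAA29 fell by 3.15 in WT, 1.304 in Mt62 and 2.50 in C13 over 24 h of hypoxia against the control of the same time. SAUR21 fell by 2.47 in WT, 1.104 in Mt62 and 1.29 in C13. HAT2 fell by 2.04 in WT and 1.01 in C13, and its change in Mt62 was not listed. IAA1 fell by 1.78 in WT and 0.88 in Mt62, and IAA19 by 1.59 in WT, 0.63 in Mt62 and 0.55 in C13. The computed difference of untreated plants at 24 h, Mt62 minus WT, was -0.60 in IAA29 and -0.36 in IAA19. It was -0.04 in SAUR21 and 0.07 in IAA1. In IAA29 and IAA19 part of the smaller fall thus came from lower control values in Mt62. In all 10 members with both responses listed the fall was smaller in Mt62 than in WT, where 3699 of all 6184 genes with both responses had the smaller response in Mt62. The difference between the responses passed its own test in 0 of the 10. The WT and Mt62 responses use the same hypoxic samples as the comparison of the lines, so they show where its values come from and are no separate evidence.

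The wider SAUR family, small auxin-induced proteins that promote cell expansion, was looked at after the values had been seen. Of 64 measured members 11 were higher and 0 lower (17.2%), SAUR21 among them. After SAUR65 and SAUR21 came SAUR13 at 0.92, SAUR48 at 0.91, SAUR14 and SAUR49 at 0.82, SAUR50 at 0.77 and SAUR25 at 0.72, while SAUR10, SAUR8 and SAUR4 lay between 0.57 and 0.59. SAUR21 alone passed the adjusted p from the bound. Members of this family differ in their own response: SAUR65 fell by 2.45 in hypoxic WT, whereas SAUR48 rose by 0.92 in WT and by 1.72 in Mt62. In the 18 members with both responses listed the response was smaller in Mt62 in 10 and larger in 8, against 3699 smaller of 6184 over all genes. SAUR genes lie in clusters of near-identical copies, so a probe may read more than 1 of them. Of 23 measured expansin and XTH genes, which loosen cell walls, 1 was called, XTH9 at 1.07.

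The phloem protein 2 family, lectin-like proteins of sieve elements and related F-box proteins, was also chosen after its values were seen. Of 28 measured members 5 were higher and 0 lower (17.9%). PP2-A5 stood at 1.23, PP2-B1 at 0.98, AT1G10150 (PP2-A10) at 0.75, PP2-B6 at 0.52 and PP2-A12 at 0.46. None of the 5 passed the adjusted p from the bound. PP2-B1 rose by 1.36 in hypoxic Mt62 and by 1.02 in C13 and was not listed in WT, while AT1G10150 fell by 1.33 in WT and by 0.68 in Mt62.

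**Figure D2:**
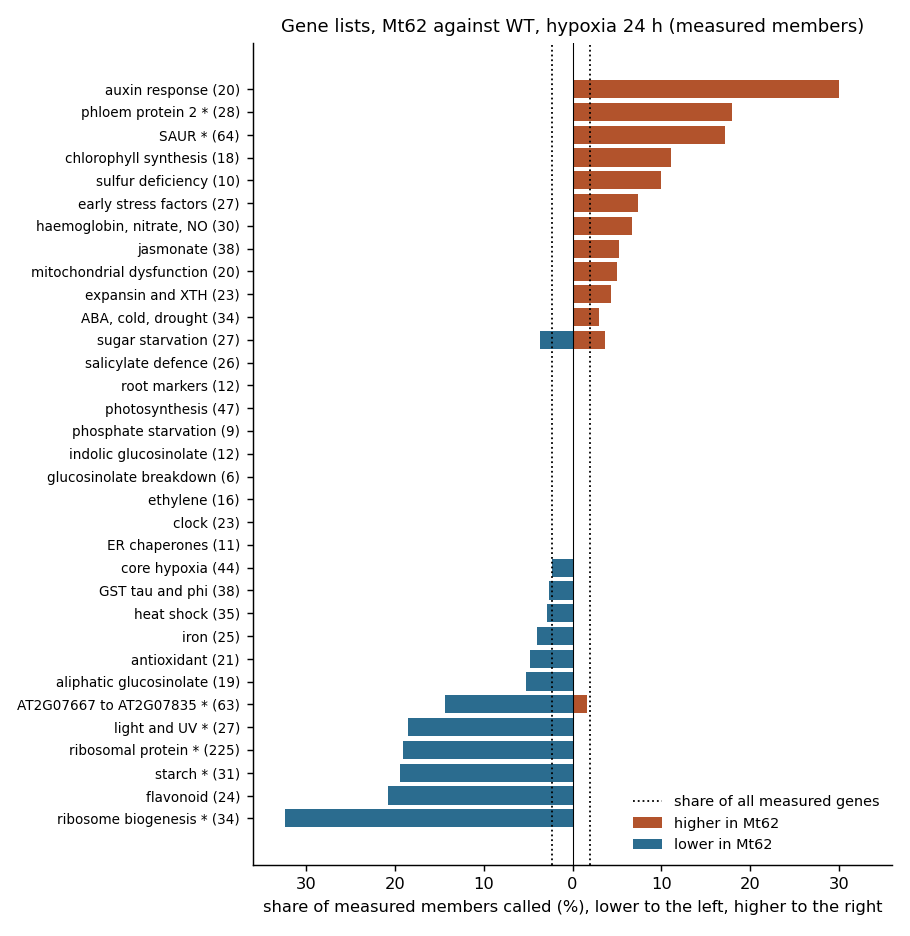
Share of the measured members of each gene list called higher (right, brown) or lower (left, blue) in Mt62 than in WT after 24 h of hypoxia, in percent, with the number of measured members in brackets. Dotted lines mark the shares of all genes, 1.99% and 2.31%; asterisks mark lists written or families chosen after values were seen. Auxin response (30%) reaches farthest to the right and ribosome biogenesis (32.4%) farthest to the left.

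Flavonoid genes were lower in Mt62. Of 24 measured members 5 were called, all lower (20.8%, against 2.31% of all genes), with a median of -0.67. They were the regulators PAP1 at -1.08 and PAP2 at -0.51, and the enzymes chalcone isomerase (CHI) at -0.70, the coenzyme A ligase 4CL3 at -0.67 and dihydroflavonol reductase (DFR) at -0.62. PAP1 alone of the 5 passed the adjusted p from the bound. Their own responses to hypoxia in Mt62 went in both directions. CHI rose by 1.38 and 4CL3 by 1.38 there, against 1.98 and 2.18 in WT, whereas PAP1 fell by 0.52 in Mt62 and rose by 0.79 in WT. DFR rose by 1.00 and PAP2 by 0.80 in WT, and neither was listed in Mt62. PAP1 was 1 of only 2 genes whose response differed between the lines by its own test, with a difference of -1.31 (SE at most 0.26, adjusted p from the bound 0.0188). That call is against the 24 h control alone, since PAP1 had no listed response against the 0 h control in either line. DFR was lower in Mt62 already in untreated plants at 0 h, by 0.57, so its difference was not confined to hypoxia.

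Beside HY5, 4 more genes of light and UV signalling were lower and 0 higher, 5 of 27 in a list written after the values were seen (18.5%). UVR2, a photolyase that repairs UV damage, was at -0.72, the phytochrome interactor PIL2 at -0.54, the ubiquitin ligase COP1, which breaks down HY5, at -0.48 and the cryptochrome CRY3 at -0.37. Neither HY5 nor any of these passed the adjusted p from the bound. HY5 rose by 3.32 in hypoxic WT and 3.12 in C13, and its response in Mt62 was not listed. COP1 and UVR2 likewise rose in WT (0.71 and 1.11) and in C13 (0.76 and 1.01) and were not listed in Mt62. Not listed means only that the authors' p was above 0.01. After 2 h of hypoxia HY5 rose by 3.06 in Mt62 and 2.71 in WT, and UVR2 by 0.70 and 0.52. COP1 rose by 0.39 in Mt62 at 2 h and was not listed in WT.

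Starch genes, likewise gathered after the values were seen, were called only downwards, in 6 of 31 measured members (19.4%). Along with APL3 they were APL4, a second large subunit of ADP-glucose pyrophosphorylase, at -1.04, and its small subunit ADG1 at -0.32. The glucanotransferase DPE2, which handles maltose from starch breakdown, was at -0.65, the branching enzyme SBE2.2 at -0.53 and the starch synthase SS3 at -0.44. Of the 6 only APL3 and SBE2.2 passed the adjusted p from the bound. APL3 rose by 1.85 in hypoxic WT and by 1.21 in C13, APL4 by 1.45 and 1.104, and both responses were not listed in Mt62. SBE2.2 rose by 1.02 in WT, 0.43 in Mt62 and 0.63 in C13. SS3 fell by 0.61 in Mt62 and was not listed in WT or C13. In the 11 members with both responses listed the response was smaller in Mt62 in 7 and larger in 4, against 3699 smaller of 6184 over all genes.

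Genes that build ribosomes were lower in Mt62. In a list of 34 measured ribosome biogenesis genes, written after the values were seen, 11 were lower and 0 higher (32.4%), with a median of -0.56. The rRNA methyltransferase OLI2 was at -0.92, NHP2, a protein of the RNA-guided pseudouridylation complex, at -0.71, the AAA-ATPase MDN1 at -0.66 and NRPA2, a core subunit of RNA polymerase I, at -0.64. NOP58-1 at -0.62, RLP24 at -0.56, PUM24 at -0.55, NAP57 at -0.54, BRX1-2 at -0.47, IMP4 at -0.45 and NOP58-2 at -0.38 made up the rest. Only NRPA2 and NHP2 passed the adjusted p from the bound. All 11 rose in hypoxic WT and in hypoxic C13. NRPA2 rose by 1.23 in WT, 0.58 in Mt62 and 0.96 in C13, and NHP2 by 1.38, 0.67 and 1.34. In the 25 members with both responses listed, the median rise was 1.35 in WT and 0.90 in Mt62, and the rise was smaller in Mt62 in 23, against 3699 of 6184 over all genes. None of these 25 differences passed its own test. NRPA2 and NHP2 were lower in Mt62 already in untreated plants at 0 h, at -0.51 and -0.47, while the computed difference of untreated plants at 24 h was 0.01 in both. Computed but not listed at 0 h, NOP58-1 was at -0.41, PUM24 at -0.31, IMP4 at -0.30 and NAP57 at -0.24. RLP24 at -0.23 and NOP58-2 at -0.21 were lower too, and MDN1 was at 0.14. At 24 h the computed values of these genes lay between -0.14 in IMP4 and 0.12 in MDN1.

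Cytosolic ribosomal protein genes were lower as well. Of 225 measured genes in a list written from general knowledge of the family after the values were seen, 43 were lower and 0 higher (19.1%), with a median of -0.55 and a range of -0.77 to -0.31. Of the 33 measured members that the RefSeq table itself names as ribosomal proteins, 6 were lower and 0 higher. RPL23AB was at -0.56, RPL3B at -0.56 and RPL5B at -0.54. Ribosomal proteins come in families of close copies, so that the values of single copies are uncertain. Over the 91 members with both responses listed, the median rise was 0.97 in WT and 0.76 in Mt62.

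**Figure D3:**
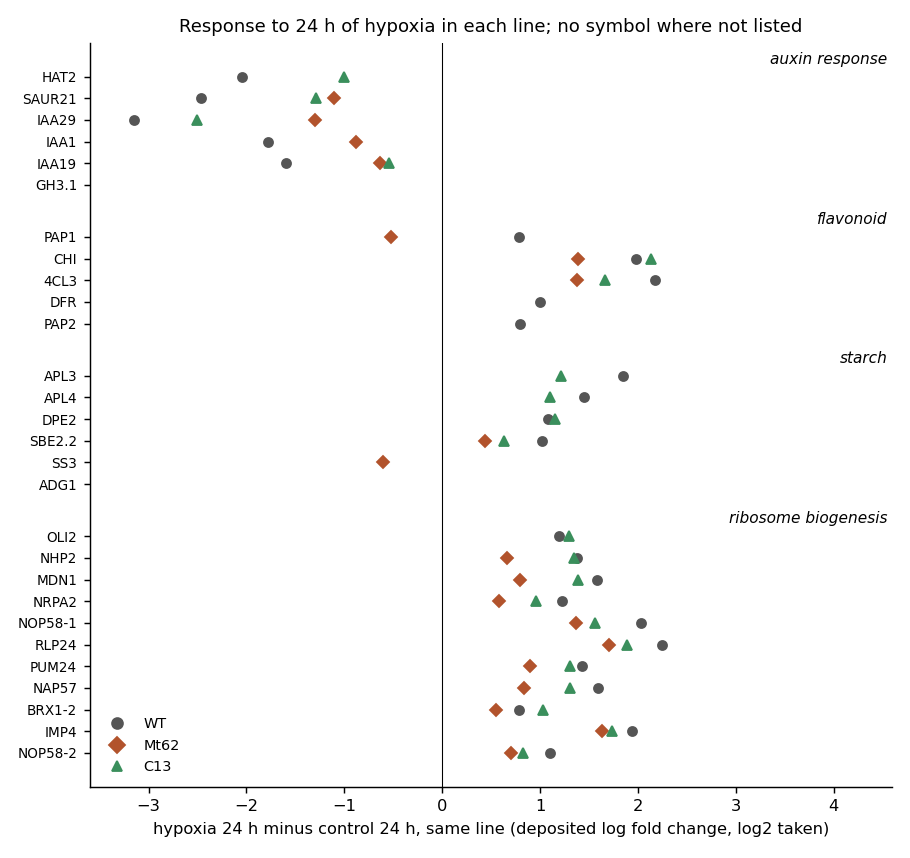
Response to 24 h of hypoxia (hypoxia minus control of the same time in the same line, deposited log fold change) of called genes of 4 groups in WT (circles), Mt62 (diamonds) and C13 (triangles). A symbol is missing where the response was not listed, and no replicate error can be drawn because the table has no value per channel. In every auxin gene drawn with both symbols Mt62 lies nearer 0 than WT, as it does in the ribosome biogenesis genes with both.

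Loci AT2G07667 to AT2G07835 lie in a copy of the mitochondrial genome on chromosome 2, and their probes cannot tell transcripts of that copy from those of mitochondria. The run was singled out after its values were seen. Of 63 measured loci 9 were lower (14.3%) and 1 higher (1.59%). AT2G07689 was at -0.90, AT2G07779 at -0.86, AT2G07776 at -0.80 and AT2G07815 at -0.76, and the single higher locus, AT2G07760, at 0.99. No called locus of the run passed the adjusted p from the bound. AT2G07689 rose by 2.33 in hypoxic WT, 1.63 in Mt62 and 2.60 in C13. AT2G07815 rose by 1.68, 0.85 and 1.96. In 37 of the 39 loci with both responses listed the response was smaller in Mt62 than in WT, against 3699 of 6184 over all genes, and 0 of the 39 differences passed their own test.

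The core hypoxia genes were not called as a group. Of 44 measured members 1 was called, PCO2, which is 2.27% against 2.31% of all genes. PCO2 rose by 3.59 in WT, 2.93 in Mt62 and 3.44 in C13. Its difference of -1.21 rests on 1 of its 2 rows (adjusted p from the bound 0.33). Its responses in Mt62 and WT differed by only -0.67 (SE at most 1.18). Alcohol dehydrogenase ADH1 rose by 3.99 in WT and 4.31 in Mt62, a response difference of 0.32 (SE at most 1.75). Pyruvate decarboxylase PDC1 rose by 5.21 and 4.73, and the class 1 haemoglobin HB1, which scavenges NO, by 4.15 and 3.59. The truncated haemoglobin HB3 rose by 2.50 and 2.53. Bounds on such strongly induced genes are wide: a difference between the lines of up to 3.27 in ADH1, 3.89 in PDC1 and 3.04 in HB1 need not have been listed. Over the 38 core genes with both responses listed the median difference, Mt62 minus WT, was -0.18, and 0 of the differences passed their own test. The response was smaller in Mt62 in 26 and larger in 12, where 3699 of all 6184 genes with 1 sign in both responses had the smaller response in Mt62.

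Heat shock genes were likewise not called as a group. Of 35 measured members only AT1G71000 was called. It rose by 3.63 in WT and 4.66 in C13 and was not listed in Mt62. HSP17.6II, a cytosolic small heat shock protein, rose by 5.36 in WT, 4.85 in Mt62 and 5.95 in C13. Over the 31 members with both responses listed the response was larger in Mt62 in 20 and smaller in 11, with a median difference of 0.25, and 0 of the differences passed their own test. HSA32, outside the list, rose by 2.52 in WT, 3.93 in Mt62 and 4.39 in C13, so that it was higher in Mt62 while AT1G71000 was lower.

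Genes of NO, nitrate and mitochondria gave 3 calls. Of 30 measured genes of haemoglobin, nitrate assimilation and NO, 2 were higher (6.67%) and 0 lower: UPM1, which makes the precursor of sirohaem, at 0.63, and glutamate synthase GLT1 at 0.42. The nitrate reductases NIA1 and NIA2 were not listed, and a difference above 0.83 and 0.79 would have been if the assumptions of the SE bound hold. The class 2 haemoglobin HB2 was not listed either, with a limit of 0.80. The S-nitrosoglutathione reductase GSNOR1 has no named probe. Among 20 measured mitochondrial dysfunction genes, which respond to inhibited respiration, only the membrane-bound factor NAC013, itself a regulator of that response, was called (5% of the list), at 0.71. It rose by 1.96 in WT, 2.58 in Mt62 and 2.31 in C13. The alternative oxidase AOX1A was not listed, and a difference above 0.90 would have been on the same assumptions, while AOX1D was listed in no column and has no limit.

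In 9 of the 26 lists written with the design no member was called, among them photosynthesis (0 of 47), the circadian clock (0 of 23), salicylate defence (0 of 26) and ethylene (0 of 16). For photosynthesis 31 of the 47 members have a limit, with a median of 1.42, so that sizeable differences could have gone unlisted. For the clock the 23 limits had a median of 0.70. Over all 26 lists together 19 of 606 measured genes were higher and 12 lower, where 1.99% of all genes were higher and 2.31% lower. Calls not yet grouped were the chlorophyll synthesis genes CAO and CHLM (0.56), 2 of 18 measured, and the jasmonate genes JAZ9 and ILL6 (0.73), 2 of 38. The early stress factors MYB44 at 1.01 and ERF4 at 0.59 were 2 of 27. The drought factor RD26 at 1.09 was 1 of 34 in its list, and APR3 1 of 10 sulfur deficiency genes. Lower were the trehalose phosphate synthase homologue TPS5 at -0.82 (1 of 27 sugar starvation genes) and nicotianamine synthase NAS4 at -0.83 (1 of 25 iron genes). The isopropylmalate isomerase subunit IPMI2 was at -0.80 (1 of 19 aliphatic glucosinolate genes). Dehydroascorbate reductase DHAR1 was at -0.60 (1 of 21 antioxidant genes) and glutathione transferase GSTU14 at -0.44 (1 of 38 in its list). AKINBETA1, a subunit of the SnRK1 energy sensor, was higher at 0.60.

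Whether these genes respond to low oxygen at all can be asked in samples that take no part in the comparison. Line C13 at 24 h shares no array channel with hypoxic Mt62 or hypoxic WT, although C13 and Mt62 share 1 array field in different dyes. Of the 567 genes lower in Mt62 than in WT, 274 rose (48.3%) and 30 fell (5.29%) in C13 over 24 h of hypoxia, while 17.5% of all genes rose and 17.1% fell. Of the 488 genes higher in Mt62, 87 rose and 170 fell (34.8%). The share that rose among the lower genes, and the share that fell among the higher genes, thus lay above those of all measured genes. Among the 34 lower genes that passed the adjusted p, 27 rose in C13 and 1 fell, and among the 27 higher ones 7 rose and 14 fell. Among the 37 higher genes of size 1 or more the counts were nearly level, with 12 that rose and 14 that fell, while of the 15 lower ones 11 rose and 0 fell.

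Responses at 2 h, again from other channels, were counted in the same way. In WT 117 of the 567 lower genes rose (20.6%) and 58 fell (10.2%), where 8.23% of all genes rose and 9.92% fell. In Mt62 125 rose (22%) and 49 fell (8.64%), where 9.37% of all genes rose and 10% fell. Of the 488 higher genes 103 fell in WT (21.1%) and 110 in Mt62 (22.5%). These are counts of called genes without a test of their own, and genes that vary more are called more often in any column.

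**Figure D4:**
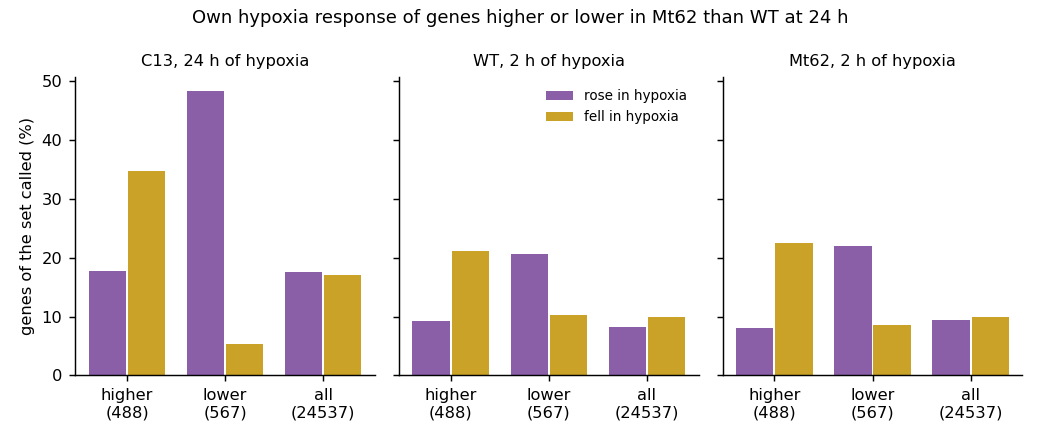
Share of genes that rose (purple) or fell (yellow) in hypoxia against the control of the same time, among genes higher in Mt62 than WT at 24 h (488), lower (567) and all measured genes (24537), in C13 at 24 h, WT at 2 h and Mt62 at 2 h. In C13, 48.3% of the lower genes rose against 17.5% of all genes.

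The difference between the responses of Mt62 and WT was then tested in each gene, which asks whether the lines part under hypoxia rather than before it. Both responses were listed for 6198 genes, of which 6184 had 1 sign in each, and the difference passed in 2 of them (0.0323%), JAZ9 and PAP1, while 330 of 7572 rows had an unadjusted p under 0.05. JAZ9, which holds jasmonate responses in check, fell by 2.72 in WT, 0.75 in Mt62 and 1.17 in C13, a difference of 1.97 (SE at most 0.37, adjusted p from the bound 0.0133). With the 0 h control in place of the 24 h control 0 of 6494 genes passed, with 272 rows at an unadjusted p under 0.05. Against 0 h JAZ9 fell by 2.07 in WT and 1.33 in Mt62. A gene whose response in Mt62 was too small to be listed, such as HY5 or APL3, could not enter this test.

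Since the columns are differences of the same group means, the difference between untreated Mt62 and untreated WT at 24 h could be computed for 274 named rows that were listed under hypoxia. Its median size was 0.07, against 0.55 for the same rows under hypoxia, and in 264 of them it was under 50% of the hypoxic difference. At 0 h the median was 0.14 over 291 rows, and in 225 the untreated difference was under 50%. These rows are the ones with the needed values listed, and they were chosen for a large hypoxic difference. The sign was that of the hypoxic difference in 141 of the 274 rows at 24 h and in 197 of the 291 at 0 h. JAZ9 was at -0.79 and PAP1 at 0.23 in untreated plants at 24 h, both opposite in sign to hypoxia, but at 0.44 and -0.23 at 0 h, both of the same sign. At 24 h APR3 was at 0.21, SAUR21 at -0.04, KUP6 at -0.02 and CHI at -0.11, while IAA29 was at -0.60, IAA19 at -0.36 and RD26 at 0.41.

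The other 4 comparisons of Mt62 with WT use other channels. Of all genes 0.774% were called in untreated plants at 0 h, 1.23% after 2 h of hypoxia, 1.32% after 2 h of DETA and 3.73% after 24 h of DETA. Of the 1055 genes called at 24 h of hypoxia, 27 were also called at 0 h, which is 2.56% of the first list and 14.2% of the second, and 26 of the 27 had the same direction. After 2 h of hypoxia 29 were shared (2.75% and 9.63%), 15 in the same direction. After 2 h of DETA 39 were shared (3.7% and 12%), 27 in the same direction. After 24 h of DETA 72 were shared (6.82% and 7.86%), 38 in the same direction and 34 in the opposite one. Of the 1055 genes 975 were called the same way in none of the other 4.

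A few genes were called in most of the 5 conditions. AT1G40087 was lower in Mt62 in all 5 comparisons, at -0.83 in untreated plants, -1.12 and -1.43 after 2 and 24 h of hypoxia, and -0.71 and -1.07 after 2 and 24 h of DETA. Another 6 genes were called the same way in 4 of the 5. TBL26 was higher by 1.43 in untreated plants, 1.28 after 2 h and 1.34 after 24 h of DETA, against 2.61 at 24 h of hypoxia, but none of these differences between conditions passed its test. PGL2, a 6-phosphogluconolactonase, was higher by 0.83 to 1.07 in its 4. AT5G15690, the ubiquitin ligase UPL4, XPB2, a DNA helicase of nucleotide excision repair, and CESA5, a cellulose synthase, were lower. Lower in 3 of the 5 was AT5G06610, at -1.19 after 2 h of hypoxia and -1.83 after 2 h of DETA. AT1G40087 and the 6 genes called in 4 of the 5 were also called the same way in C13 against WT at 24 h of hypoxia. There AT1G40087 was at -1.35, TBL26 at 1.67, PGL2 at 1.19, AT5G15690 at -0.64, UPL4 at -0.74, XPB2 at -0.64 and CESA5 at -0.40.

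The gene groups were also counted in the other conditions. Ribosome biogenesis genes were also lower after 24 h of DETA, in 10 of 34 (1.9% of all genes were lower there), 6 of them among the 11 lower at 24 h of hypoxia. In untreated plants at 0 h 2 of the 34 were lower (0.477% of all genes were), both among the 11. Of the 31 starch genes 9 were higher and 2 lower after 24 h of DETA (1.84% of all genes were higher). Only 1 of them, DPE2, was called in both conditions, at 0.80 there against -0.65 at 24 h of hypoxia. Of 20 auxin response genes 0 were higher and 3 lower after 24 h of DETA. In the SAUR family 1 of 64 was higher after 24 h of DETA and 1 after 2 h of hypoxia.

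**Figure D5:**
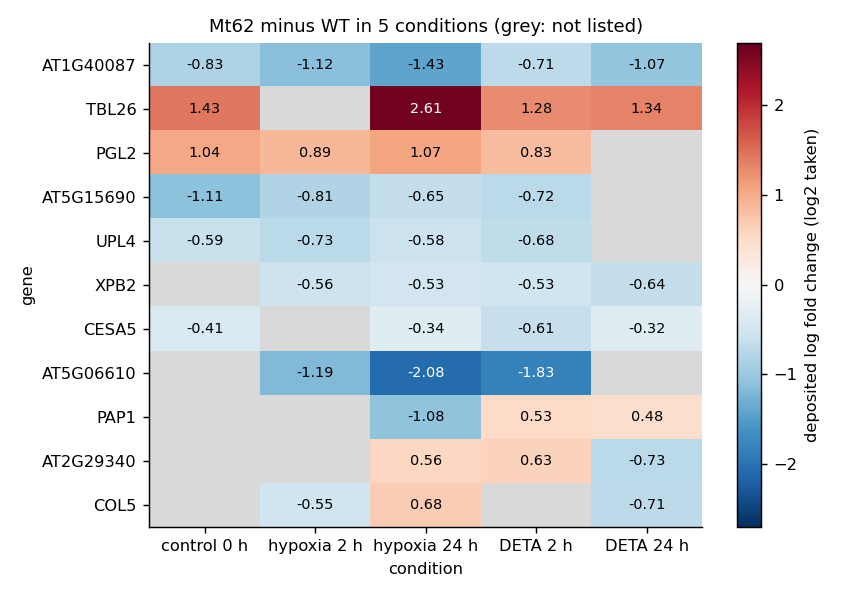
Deposited log fold change, Mt62 minus WT, in 5 conditions for the 7 genes called the same way in at least 4 of them and for AT5G06610, PAP1, AT2G29340 and COL5, with red for higher in Mt62, blue for lower and grey for not listed. AT1G40087 is blue throughout, and PAP1 is blue at 24 h of hypoxia and red under DETA.

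C13, the line with the haemoglobin in the cytosol, was compared with the same hypoxic WT samples, and so its values at 24 h can only be set beside those of Mt62. Of the 20 auxin response genes 6 were higher in C13 and 0 lower, and of the 24 flavonoid genes 6 were lower and 0 higher, where 1.47% of all genes were higher and 1.47% lower. Calls in both lists were thus as many in C13 as in Mt62, or more. Of ribosome biogenesis genes 4 of 34 were lower in C13, of ribosomal protein genes 9 of 225 and of starch genes 3 of 31, and whether the lines differ in these counts was not tested. In the authors' deposited table SAUR21 was higher in C13 by 0.74, JAZ9 by 0.96, KUP6 by 0.61 and TBL26 by 1.67, against 1.33, 1.18, 0.96 and 2.61 in Mt62. PAP1 stood at -1.24 in C13, APL3 at -0.75 and AT1G40087 at -1.35, against -1.08, -1.36 and -1.43 in Mt62. CAO, HY5, PCO2 and AT1G71000 were listed in Mt62 only.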

How the data were processed

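RNA of shoots was hybridized to Agilent arrays, each field taking 3 samples in different dyes, per the labels' protocols. Per the series text the authors applied quantile normalization, a modified ComBat and an empirical Bayes test in R and Bioconductor, and set values with p above 0.01 to null. The values as deposited are log fold changes, taken as log2. Signal over background, which limits an array's precision, is not in the table.

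Rows were named through the probe table by accession (24525 rows), by symbol against the TAIR10.1 RefSeq table (1805) or as given (36), and 8192 rows had no gene. A gene was called where at least 1 row was listed and all listed rows had 1 sign; 1 gene had rows of both signs. Its value is the mean of its listed rows. Columns were tested for additivity, and the largest residual over closed loops was 2.0e-09. Row standard deviations were bounded by the smallest listed value over 2.576 and the channel numbers, and p came from Student's t with 60 degrees of freedom (81 channels less 21 groups), with Benjamini-Hochberg adjustment at 0.05 over all rows, those not listed entering with p of 1, or for response differences over the rows with both responses listed. Differences between conditions were tested in the same way, over all rows. The procedure was run on simulated data with 1 spread per row in all groups, as the bound assumes. That run cannot show how the bound fares on the authors' empirical Bayes values. Python 3.11.15 with NumPy 2.4.6, SciPy 1.17.1, pandas 2.3.3 and matplotlib 3.10.9 was used.

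The members, lists and tests were chosen with earlier results of these data known, and 7 lists or families (ribosomal protein, ribosome biogenesis, starch, light and UV, phloem protein 2, SAUR, AT2G07667 to AT2G07835) after the values were seen. Named genes are the 12 highest and 12 lowest, up to 12 each way past the adjusted p, those called the same way in at least 3 other comparisons of Mt62 with WT, up to 4 per list, response differences past their test, and fixed hypoxia and NO genes. All called members of auxin response, SAUR, phloem protein 2, starch and ribosome biogenesis, and HSA32, AT5G06610 and other genes named outside that rule, were chosen after their values were seen. Alternatives were the rule for a call, a minimum size, the bound, the number of channels and the 0 h control.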

Additional observations from a re-analysis of the deposited data

Results flagged for a closer look

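The difference between Mt62 and WT at 24 h of hypoxia was set against the same difference in other conditions, gene by gene, with the bound as standard error and adjustment over all 34558 rows. Each gene here was listed in both with opposite signs and passed. Of PAP1, the anthocyanin regulator, the value was -1.08 at 24 h of hypoxia, 0.53 after 2 h of DETA and 0.48 after 24 h, so that the conditions differed by -1.61 and -1.56 (adjusted p from the bound 0.00626 and 0.00264).

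Against 24 h of DETA 14 more genes passed. Those higher in Mt62 at 24 h of hypoxia and lower at 24 h of DETA were the B-box factor COL5, with a difference between the conditions of 1.39, AT2G29340 (1.28), AT3G62470 (0.87), AT5G02170 (1.45) and the epimerase UGE3 (1.00). Those lower at 24 h of hypoxia and higher at 24 h of DETA were ALDH3H1 (-0.78), AT1G53710 (-0.72), AT4G16750 (-1.06), AT4G26130 (-1.01), MAP1C (-1.01), NAGS1 (-0.96), NAPRT1 (-0.90), PAPS2 (-0.97) and PDE135 (-0.85). COL5 shows the pattern by its values, 0.68 at 24 h of hypoxia and -0.71 at 24 h of DETA. It was also lower in Mt62 after 2 h of hypoxia, at -0.55. The pattern did not extend to all genes at 2 h of DETA. There AT2G29340 and UGE3 were higher in Mt62, at 0.63 and 0.43, and AT1G53710 was lower, at -0.47. MAP1C was higher at 2 h of DETA as at 24 h, at 0.52, and the other genes of the 14 were not listed there.

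Against 2 h of hypoxia AT3G60680 differed by 1.103 and TEL2, an RNA-binding regulator of meristems, by -0.84. AT3G60680 was at 0.79 after 24 h and -0.31 after 2 h, and TEL2 at -0.54 and 0.29.

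The responses to 24 h of hypoxia differed between the lines, Mt62 minus WT, by -1.31 in PAP1 and by 1.97 in JAZ9 against the control of 24 h. With the 0 h control 0 of 6494 genes passed: JAZ9 fell by 2.07 in WT and 1.33 in Mt62, and PAP1, listed in neither line, could not enter. Causes of these differences were not tested.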

How the results depend on the processing

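Requiring all rows of a gene to be listed gave 430 higher and 509 lower genes in place of 488 and 567, and 15 and 11 members of the 26 lists in place of 19 and 12. Requiring a size of 1 or more left 37 higher and 15 lower genes, and 9 higher and 3 lower list members, since most values are small. The adjusted p from the bound left 27 higher and 34 lower genes, and with 3 channels for hypoxic Mt62, an alternative added after seeing the data, 7 and 11. The number of genes whose 24 h response differed was 2, also 2 with 3 channels, and 0 with the 0 h control, and the cause was not tested. Calls in auxin response, flavonoid, ribosome biogenesis, starch, SAUR and ribosomal protein genes were 6, 5, 11, 6, 11 and 43, and with all rows required 6, 5, 10, 6, 10 and 36. A size of 1 or more left 3, 1, 0, 2, 2 and 0. No replicate could be left out and no other normalization tried, because the table has no value per channel. No paired analysis was possible because the columns carry no replicate numbers. The authors' threshold was not varied below a p of 0.01 except through the bound, and rows not listed have only limits.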

Other observations

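Probe rows without a gene made up 245 of the 1308 listed rows and are not described by name. Of all genes called, 1 was left out because its rows had opposite signs. For 358 rows that were not listed the other columns gave a computed value of Mt62 minus WT, and the largest of them had a size of 0.95.

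The 24 h hypoxia comparison had the most listed rows of the 10 comparisons of a transgenic line with WT. The other 9 had 244 to 1070, with the fewest in untreated Mt62 at 0 h, which is fewer than the 346 that the threshold lists if no row differs.

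Sugar starvation genes, of which 1 was higher and 1 lower in Mt62 at 24 h of hypoxia, were lower in Mt62 in 13 of 27 after 24 h of DETA, where 1.9% of all genes were lower. In hypoxia the 21 members with both responses listed fell with a median of -1.94 in WT and -1.17 in Mt62, the fall being smaller in Mt62 in 20, where 3699 of all 6184 genes had the smaller response in Mt62, and none of these differences passed its own test.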
